A study of Mus musculus with 38 samples.

Results

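The subject is the interaction of vitiligo induction and antibiotics in mouse tail skin, measured by bulk RNA sequencing of messenger RNA. It asks, gene by gene, whether the difference between induced and uninduced skin was itself different when the mice had received antibiotics (ABX). The design text of the series says that ABX served to deplete gut microbes in a mouse model of vitiligo. The members are the 30 of 38 libraries that belong to 4 groups, chosen by the treatment in the labels. There were 6 libraries with induction and ABX (vitiligo_ABX), 6 from wild type mice with ABX and no induction (no_induction_ABX), 9 with induction alone (vitiligo) and 9 from wild type mice with neither (no_induction). The other 8 libraries belong to 2 further groups and enter only 1 alternative fit. The labels give neither strain, sex and age nor the way vitiligo was induced, the composition and time of ABX, or whether libraries came from separate mice.

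Vitiligo is a loss of melanocytes, the pigment cells of skin and hair follicles, in which CD8+ T cells and interferon gamma take part. Interferon gamma induces the chemokines that draw T cells to skin and the genes that present antigen, while type I interferons induce an overlapping set of antiviral genes. In the hair follicle melanocytes hand melanosomes to the cells that build the hair shaft out of keratins and keratin-associated proteins. Pigment transcripts and hair shaft transcripts are therefore both found in the follicle bulb, but melanocytes of skin outside follicles hold pigment transcripts too.

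For each of 14310 genes that passed a count filter, out of 19219 in the table, the interaction was (vitiligo_ABX − no_induction_ABX) − (vitiligo − no_induction) on the log2 scale. A positive value means that induced skin exceeded uninduced skin by more with ABX than without it, and a negative value means the opposite. The test over all genes was edgeR's quasi-likelihood F test, and called means a p under 0.05 after Benjamini-Hochberg adjustment. Levels are given as CPM, counts scaled to a common library total, which depend on transcript length, so levels are compared between libraries and never between genes.

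The interaction was called for 1639 genes (11.5% of those tested), of which 956 were positive (6.68%) and 683 negative (4.77%). The called genes had opposite signs of the induction effect with and without ABX far more often than a common sign. Of the 956 positive genes 932 had a higher mean estimate in vitiligo_ABX than in no_induction_ABX together with a lower one in vitiligo than in no_induction. Of the 683 negative genes 597 had the reverse arrangement. Among all 14310 genes tested 3889 had the first arrangement and 4139 the reverse. The signs are those of the estimates, and for the called genes they follow in part from selecting on the interaction. The median interaction of the positive genes was 0.732, made of a median induction effect of 0.474 with ABX and −0.27 without it. That of the negative genes was −0.789, made of −0.308 with ABX and 0.452 without it. Over all 14310 genes the median interaction was −0.0254.

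The sign of the interaction, by which these genes were chosen, fixes in part which group has the highest or lowest mean, so the order of the means is a description. The lowest mean of the positive genes lay in no_induction_ABX for 729 (76.3%) and in vitiligo for 227 (23.7%). The highest mean of the positive genes lay in vitiligo_ABX for 500 (52.3%) and in no_induction for 448 (46.9%). Negative genes were split. Their highest mean lay in no_induction_ABX for 332 (48.6%) and in vitiligo for 351 (51.4%), and their lowest mean in vitiligo_ABX for 280 (41%) and in no_induction for 362 (53%). Over all genes tested the lowest mean lay in vitiligo_ABX for 21.7%, no_induction_ABX for 28.1%, vitiligo for 24.9% and no_induction for 25.3%. The highest mean lay there for 20.6%, 30.8%, 25.6% and 22.9%, in the same order. For all 1639 called genes the interaction had the same sign when computed from mean CPM instead of log2 values.

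**Figure D1:**
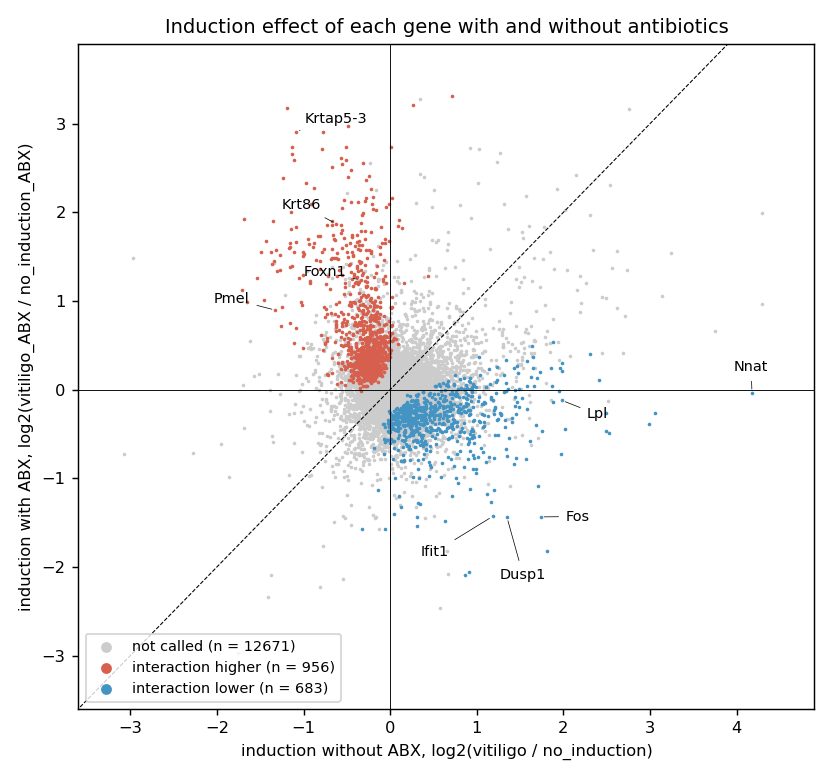
Each point is 1 of the genes tested, with the log2 induction effect without ABX on the x axis and with ABX on the y axis, and the dashed line marks equal effects. The 956 called positive genes (red) lie above the line, mostly left of 0 on the x axis, and the 683 called negative genes (blue) lie below it; 1 gene falls outside the axes.

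The 2 induction effects that make up the interaction were called for 819 genes with ABX (5.72%) and for 1325 without it (9.26%). With ABX 582 genes (4.07%) were higher and 237 (1.66%) lower in vitiligo_ABX, and without it 894 (6.25%) were higher and 431 (3.01%) lower in vitiligo. Read across ABX, 2587 genes differed between vitiligo_ABX and vitiligo (18.1%, with 7.35% higher and 10.7% lower in vitiligo_ABX). Between no_induction_ABX and no_induction 4041 differed (28.2%, with 13.6% higher and 14.6% lower in no_induction_ABX). Library totals ran from 15.3 to 27.9 M counts. The first principal component, 25.9% of the variance, put the 12 libraries with ABX at −36.4 to 0.758 and the 18 without at 2.68 to 30.4, and the labels do not say whether both sets were collected and sequenced together. A difference of that kind and ABX cannot be told apart. Within vitiligo_ABX, libraries 001 to 003 lay at −4.21 to 0.758 and 004 to 006 at −29.5 to −21.1. Leaving out libraries 001 to 003 left 625 calls of the interaction. Leaving out no_induction_ABX 002 and 004, the highest of their group in interferon genes, left 820. Transcripts of the gut epithelium were present in 4 libraries: Fabp2, an intestinal fatty acid binding protein, had 1.51 and 7.24 CPM in vitiligo 000 and 260, and 3.85 and 3.74 CPM in no_induction 011 and 012. Without these 4 libraries 1337 genes were called. Of 19 gut markers 6 passed the count filter, of which Cps1 was positive (1.38) and Cela1 negative (−1.68). The same no_induction libraries 011 and 012 held Y-linked transcripts, and without them 1810 genes were called. Barrier genes of the epidermis were high in every library, with a mean log2(CPM + 1) over 41 genes of 6.62 to 7.51 in vitiligo_ABX, 6.46 to 7.38 in no_induction_ABX, 7.15 to 7.9 in vitiligo and 7.34 to 8.12 in no_induction.

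Gene lists are described by their number of calls and their median, set against all genes tested, and the members were chosen with earlier results of these data known. The lists with the most called members were those of the hair shaft and of the keratin-associated proteins on the positive side. On the negative side they were interferon genes, glucocorticoid response genes, adipocyte genes and clock genes. In each of these lists except the glucocorticoid one, in the pigment list and in the T cell list, the direction with 0 calls by edgeR also had 0 members at an unadjusted p under 0.05 and 0 calls by DESeq2 and by limma-voom.

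**Figure D2:**
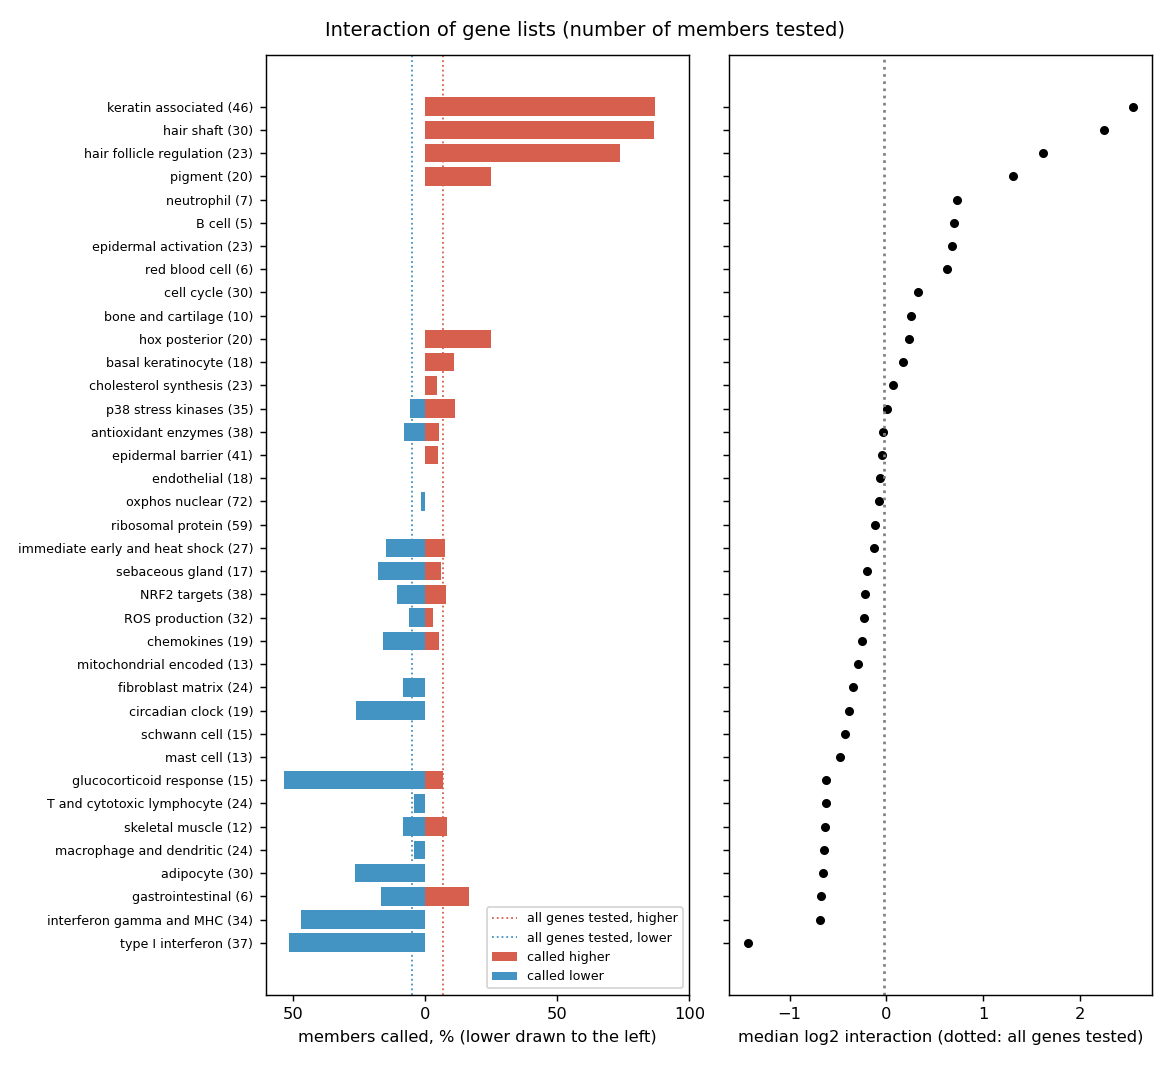
The left panel gives the share of each list's tested members that were called for the interaction, positive to the right and negative to the left, with the shares of all genes tested as dotted lines; the right panel gives the median log2 interaction of each list. By their medians keratin-associated and hair shaft genes stand at the positive end and type I interferon genes at the negative end, at −1.43.

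Hair genes made up the largest positive group. Of 30 hair shaft genes, keratins and keratin-associated proteins of the fibre, 26 were positive and 0 negative, against 6.68% of all genes called positive. Their median interaction was 2.25. Of 46 keratin-associated proteins, some of them also on the first list, 40 were positive and 0 negative, with a median of 2.55. With ABX 22 of the 30 hair shaft genes were higher in vitiligo_ABX (median effect 1.63, with 4.07% of all genes called higher), and without ABX 0 were higher and 5 were lower in vitiligo (median effect −0.36, with 3.01% of all genes called lower). The mean log2(CPM + 1) of the hair shaft list was 8.06, 8.84 and 9.33 in the lowest, median and highest vitiligo_ABX library, and 6.28, 7.19 and 7.88 in no_induction_ABX. Without ABX it was 7.84, 8.3 and 8.98 in vitiligo and 8.19, 8.99 and 9.44 in no_induction. All 6 vitiligo_ABX libraries lay above all 6 no_induction_ABX libraries, while the 2 groups without ABX overlapped. Reads of near-identical keratin-associated genes could have been shared or split by the authors' counting, so single members are less certain than the list.

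Krtap5-3, a sulfur-rich keratin-associated protein, had the largest positive interaction of the genes named by rule. Its lowest, median and highest values were 17.1, 34.3 and 59.7 CPM in vitiligo_ABX, 0.786, 4.97 and 8.85 CPM in no_induction_ABX, 7.18, 13.9 and 40 CPM in vitiligo, and 11.8, 35.4 and 68.7 CPM in no_induction. The no_induction_ABX libraries were the lowest, only 2 vitiligo libraries reached into their range, and the 2 groups with ABX did not overlap. Its interaction was 4.0 ± 0.65 (log2 ± SE, adjusted p = 0.000501), from 2.91 with ABX and −1.09 without. The 3 other members of the same subfamily in the table, Krtap5-4, Krtap5-2 and Krtap5-1, had interactions of 3.79, 3.70 and 3.31, and the groups with ABX did not overlap in any of them either. Krtap29-1 (3.19), Krtap10-4 (3.11) and Krtap16-1 (3.11) had the same arrangement. Krtap4-7 (2.81), Krtap9-5 (3.02), Krtap31-1 (2.96) and Krtap8-1 (1.99) were positive with groups that overlapped. Among the largest positive interactions outside the hair lists were those of Chrna4 (3.63), a nicotinic receptor subunit, Lyg2 (3.5), Cacna1i (3.26), a T-type calcium channel, and Ctse (3.15), the protease cathepsin E.

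Krt86, a hair keratin of the shaft cortex, had 666, 1120 and 1590 CPM in vitiligo_ABX, 106, 245 and 620 CPM in no_induction_ABX, 230, 522 and 1120 CPM in vitiligo, and 353, 921 and 1230 CPM in no_induction. Its lowest vitiligo_ABX library lay just above its highest no_induction_ABX library, and its interaction was 2.49 ± 0.49 (adjusted p = 0.00192). Krt71, a keratin of the inner root sheath that moulds the growing shaft, had 729, 2450 and 4250 CPM in vitiligo_ABX, 284, 785 and 1730 CPM in no_induction_ABX, 753, 1380 and 2410 CPM in vitiligo, and 1030, 2550 and 4280 CPM in no_induction. Groups overlapped with and without ABX, and the interaction was 2.50 ± 0.53 (adjusted p = 0.0033).

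Genes that direct hair growth followed the structural ones. Of 23 regulators and inner root sheath genes 17 were positive and 0 negative, against 6.68% of all genes called positive. Their median was 1.62. Foxn1, the transcription factor whose loss gives nude mice, had 88, 112 and 155 CPM in vitiligo_ABX, 29.5, 50.4 and 83.3 CPM in no_induction_ABX, 63.5, 93.4 and 122 CPM in vitiligo, and 92.4, 114 and 139 CPM in no_induction. Every no_induction_ABX library was below every vitiligo_ABX library, and the interaction was 1.58 ± 0.24 (adjusted p = 0.000397). Dlx3 and Hoxc13, homeobox factors of the hair matrix, had interactions of 1.60 ± 0.30 and 1.25 ± 0.24 (adjusted p = 0.00135 and 0.0014). Tchhl1, a relative of trichohyalin on the same list, had 3.04 ± 0.73 (adjusted p = 0.00777).

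With any single library left out, 25 to 27 hair shaft genes and 38 to 43 keratin-associated genes were called. The counts fell to 17 and 34 without vitiligo_ABX 001 to 003 and to 20 and 31 without no_induction_ABX 002 and 004. With the adipocyte level of each library as a covariate, 1 hair shaft gene and 6 keratin-associated genes were called, and the medians of these lists were 1.61 and 1.45. In bulk skin, fewer cells of a type and less RNA per cell cannot be told apart, here and in every list that follows.

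**Figure D3:**
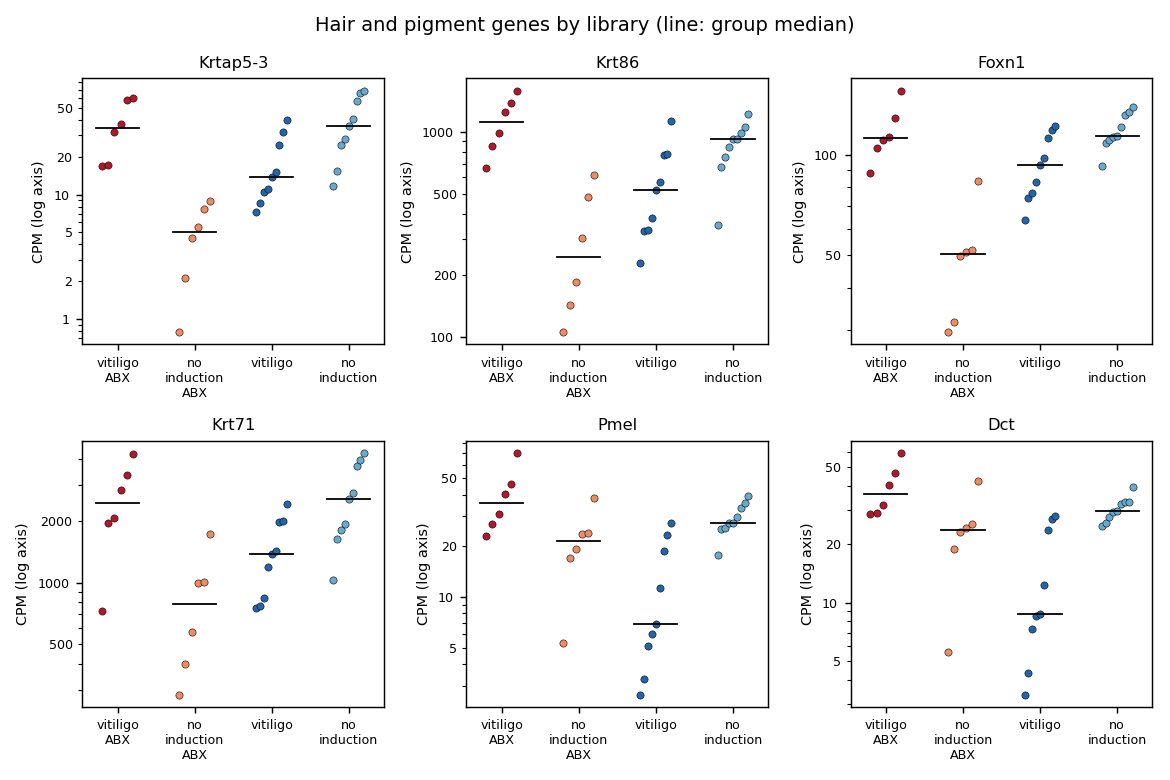
Each point is 1 library, with CPM on a log axis and a line at the group median, for 4 hair genes and 2 pigment genes. For Krtap5-3, Krt86 and Foxn1 all vitiligo_ABX points lie above all no_induction_ABX points, and for Pmel and Dct the lowest points are those of vitiligo, down to 2.66 and 3.35 CPM.

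Pigment genes were positive as well, but fewer of them were called. Of 20 tested pigment genes 5 were positive and 0 negative, with a median of 1.31, against 6.68% of all genes called positive. With ABX 1 of 20 was higher in vitiligo_ABX (median effect 0.68), near the 4.07% of all genes called higher. Without ABX 3 of 20 were lower in vitiligo (median effect −0.44), against 3.01% of all genes called lower. The mean log2(CPM + 1) of the list was 3.44, 3.59 and 4.01 in vitiligo_ABX, 2.41, 3.14 and 3.72 in no_induction_ABX, 2.24, 2.87 and 3.63 in vitiligo, and 3.13, 3.36 and 3.78 in no_induction. The vitiligo group was the lowest by its median, and the vitiligo_ABX group the highest.

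Pmel, which forms the fibrils on which melanin is laid down, had 22.9, 35.5 and 70.1 CPM in vitiligo_ABX, 5.34, 21.4 and 38.4 CPM in no_induction_ABX, 2.66, 6.95 and 27.1 CPM in vitiligo, and 17.6, 27.2 and 39.1 CPM in no_induction. The groups overlapped with and without ABX, and the low values were those of most vitiligo libraries and of 1 no_induction_ABX library. Its interaction was 2.22 ± 0.57 (adjusted p = 0.0117). Without ABX Pmel fell by 1.32 ± 0.37 in vitiligo (adjusted p = 0.0214), and with ABX the effect was 0.90 ± 0.44 (adjusted p = 0.245). Dct, an enzyme of melanin synthesis, had 28.7, 36.2 and 59 CPM in vitiligo_ABX, 5.57, 23.7 and 42.6 CPM in no_induction_ABX, 3.35, 8.72 and 27.9 CPM in vitiligo, and 24.9, 29.7 and 39.3 CPM in no_induction. Its interaction was 1.91 ± 0.52 (adjusted p = 0.016). The enzyme gene Tyrp1 had 1.99 ± 0.57 (adjusted p = 0.0224) and Oca2, a melanosomal transporter, 2.47 ± 0.76 (adjusted p = 0.0329). Tyr, the tyrosinase that starts melanin synthesis, and Mlana were not called, at 1.69 ± 0.59 and 1.93 ± 0.70 (adjusted p = 0.0595 and 0.0697).

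The pigment count rested on few libraries. It was 3 without vitiligo_ABX 003, without no_induction_ABX 002 or without vitiligo 047, 8 without no_induction_ABX 006 and 10 without vitiligo 001. It was 0 without vitiligo_ABX 001 to 003, where the median of the list was 1.04, and 1 without no_induction_ABX 002 and 004, where it was 1.23. Without the 4 libraries with gut transcripts it was 2, with a median of 1.07. With the adipocyte level as a covariate it was 0, with a median of 1.46. The hair shaft list had its lowest median level in no_induction_ABX and the pigment list in vitiligo. How much of the pigment transcripts came from follicles was not tested, nor was the part of the hair shaft list in the pigment result.

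Interferon genes formed the largest negative group. Of 37 type I interferon response genes 19 were negative and 0 positive, against 4.77% of all genes called negative, and the median interaction was −1.43. For induction with ABX edgeR called 0 of 37 (median effect −0.39), DESeq2 called 1 and limma-voom 0, and 6 had a lower value in vitiligo_ABX at an unadjusted p under 0.05. Without ABX 20 of 37 were higher in vitiligo (median effect 0.96, with 6.25% of all genes called higher). The mean log2(CPM + 1) of the list was 2.61, 3.19 and 3.56 in vitiligo_ABX, 2.79, 3.1 and 4.4 in no_induction_ABX, 2.54, 3.13 and 4.25 in vitiligo, and 2.29, 2.5 and 2.8 in no_induction. The medians of the first 3 groups lay between 3.1 and 3.19, and the no_induction group was the low one. Apol9a and Ifit3 have near-identical copies, Apol9b and Ifit3b, so their reads may be shared.

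Some called genes of this list and of the interferon gamma list are shown with the sequence before their start. Type I interferon acts through a promoter element, the interferon-stimulated response element (ISRE). It was searched on both strands as GAAA, any 2 bases and GAAA again, in promoters of 250 bases before to 50 after the start of each gene from RefSeq (GRCm38.p6). Below are 200 bases before the start, 5′ to 3′ on the gene's strand, with ISRE matches alone in capitals. From each interferon list come the 2 called genes with the largest interactions among those with 1 listed promoter and a match in this window.
Oas3 (chr5:120777685-120777884, minus strand): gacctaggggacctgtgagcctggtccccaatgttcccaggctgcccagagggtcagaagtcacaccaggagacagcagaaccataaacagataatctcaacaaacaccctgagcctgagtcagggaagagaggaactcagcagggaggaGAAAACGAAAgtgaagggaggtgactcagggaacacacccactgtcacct
Ifit1 (chr19:34640689-34640888, plus strand): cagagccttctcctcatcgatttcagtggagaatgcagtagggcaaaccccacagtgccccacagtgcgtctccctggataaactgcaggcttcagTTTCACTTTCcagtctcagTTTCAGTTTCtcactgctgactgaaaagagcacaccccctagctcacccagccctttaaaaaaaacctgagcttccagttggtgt
Gbp7 (chr3:142530136-142530335, plus strand): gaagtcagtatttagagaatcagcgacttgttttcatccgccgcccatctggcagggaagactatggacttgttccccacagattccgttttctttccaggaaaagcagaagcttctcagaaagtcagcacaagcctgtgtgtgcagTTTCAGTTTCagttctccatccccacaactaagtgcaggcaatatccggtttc
Gbp2 (chr3:142620463-142620662, plus strand): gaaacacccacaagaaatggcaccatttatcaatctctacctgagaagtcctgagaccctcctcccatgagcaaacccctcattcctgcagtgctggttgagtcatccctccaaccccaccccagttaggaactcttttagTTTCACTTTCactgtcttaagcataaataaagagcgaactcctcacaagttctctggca

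Ifit1 holds 2 matches and the other 3 promoters hold 1 each in the bases shown. Of the 37 type I interferon genes 25 had a promoter in the table, and 15 of these (60.0%) held a match, as did 7 of the 13 (53.8%) among the called genes. Of 27025 genes with a promoter 3.99% held one. The interferon gamma activated site (GAS), searched as TTCNNNGAA, which reads the same on both strands, was in 4 of the 25 (16.0%) and in 9.55% of all promoters, and 3 of the 25 held both motifs. A match is a description of the letters and not evidence of binding.

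Oas3, which makes the second messenger of an antiviral RNA-degrading pathway, had 0.742, 1.52 and 3.86 CPM in vitiligo_ABX, 0.786, 1.55 and 7.37 CPM in no_induction_ABX, 0.615, 1.42 and 7.71 CPM in vitiligo, and 0.348, 0.658 and 0.801 CPM in no_induction. The no_induction libraries were low throughout, and in no_induction_ABX and vitiligo 2 libraries of each group stood far above the rest. Its interaction was −2.71 ± 0.73 (adjusted p = 0.016). Ifit1, an antiviral protein that binds foreign RNA ends, had 1.98, 5.28 and 12.1 CPM in vitiligo_ABX, 4.25, 6.67 and 46.1 CPM in no_induction_ABX, 1.48, 3.96 and 18.5 CPM in vitiligo, and 1.02, 2.54 and 4.43 CPM in no_induction. All groups overlapped, and the interaction was −2.61 ± 0.75 (adjusted p = 0.0226). Ifit1 was not called without no_induction_ABX 002 (adjusted p = 0.0737) nor without the 4 libraries with gut transcripts, and limma-voom did not call it either.

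Other antiviral genes had the same sign. Mx1, a GTPase that blocks viruses, had an interaction of −2.26 ± 0.67 (adjusted p = 0.0257), Zbp1, a sensor of nucleic acids, −2.19 ± 0.61 (adjusted p = 0.0188), and Ifit3 −2.43 ± 0.67 (adjusted p = 0.0185). Ifih1, the cytosolic RNA sensor MDA5, whose human gene has been linked to vitiligo, had 10.6, 13.6 and 19.6 CPM in vitiligo_ABX, 15.4, 17.9 and 29.8 CPM in no_induction_ABX, 12.4, 18.3 and 27.1 CPM in vitiligo, and 8.9, 10.2 and 17.9 CPM in no_induction. The vitiligo and no_induction_ABX libraries were the higher ones, though the groups overlapped, and its interaction was −1.24 ± 0.26 (adjusted p = 0.00295). Cmpk2 (−1.68), Ifi44 (−2.23), Apol9a (−2.79) and Ifi27 (−0.93) were called as well.

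The high type I interferon level of no_induction_ABX was carried by libraries 002 and 004. Without library 002 the list had 6 called members, without library 004 it had 11, and without vitiligo_ABX 002 it had 12. Without vitiligo 001 it had 27. With no_induction_ABX 002 and 004 both left out 2 members were called, 34 of 37 were still negative and the median was −0.73. Without the 4 libraries with gut transcripts 8 were called, and without vitiligo_ABX 001 to 003 again 8. With the adipocyte level as a covariate 0 were called, all 37 were still negative and the median was −1.05.

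Antigen presentation and interferon gamma response genes were negative too, with smaller effects. Of 34 tested, 16 were negative and 0 positive, against 4.77% of all genes called negative, and the median was −0.69. For induction with ABX edgeR called 0 of the 34 (median effect −0.10), with 5 lower and 2 higher in vitiligo_ABX at an unadjusted p under 0.05. DESeq2 called 1 in each direction there and limma-voom 3 lower. Without ABX 22 were higher in vitiligo (median effect 0.75, with 6.25% of all genes called higher). B2m, the light chain of MHC class I, had 207, 254 and 360 CPM in vitiligo_ABX, 260.7, 337 and 368 CPM in no_induction_ABX, 273, 540 and 837 CPM in vitiligo, and 226, 275 and 348 CPM in no_induction. The vitiligo group held the highest values, 7 of its 9 libraries exceeding every library of the other groups, and the interaction was −1.20 ± 0.25 (adjusted p = 0.00276). H2-K1, a class I heavy chain, had −0.97 ± 0.20 (adjusted p = 0.00261), and Tapbp, which loads peptides on class I, −0.66 ± 0.15 (adjusted p = 0.00436). H2-Q4, whose reads may be shared with other H2-Q genes, had −1.38 ± 0.24 (adjusted p = 0.000669).

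Gbp7 and Gbp2, interferon-induced guanylate binding proteins named here for their promoters, had interactions of −1.50 ± 0.34 and −1.43 ± 0.36 (adjusted p = 0.00556 and 0.0101). Of the 34 genes 27 had a promoter in the table, of which 12 (44.4%) held an ISRE match and 8 (29.6%) a GAS match. Among the 13 called genes with a promoter these were 5 (38.5%) and 2 (15.4%). The count of 16 was 10 without vitiligo_ABX 002 and 9 without the 4 libraries with gut transcripts. It was 6 without vitiligo_ABX 001 to 003 and likewise 6 without no_induction_ABX 002 and 004, where the median was −0.61. With the adipocyte level as a covariate it was 0, with a median of −0.44.

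Most genes of T cells and cytotoxic lymphocytes had negative estimates that were not called. Of 24 tested, out of 31 in the table, 23 had a negative estimate, as had 7605 of all 14310 genes, and the median was −0.62. For the interaction 1 was called negative (4.17%), near the 4.77% of all genes called negative, and 0 positive. Without ABX 7 of 24 were higher in vitiligo (median effect 0.66, with 6.25% of all genes called higher). With ABX 0 of 24 were called (median effect 0.09), by edgeR, DESeq2 or limma-voom, and 0 lay at an unadjusted p under 0.05. The called gene was Itgae, the integrin chain CD103 of tissue-resident T cells and some dendritic cells, at −0.84 ± 0.23 (adjusted p = 0.019). Cd8a had 0.141, 0.24 and 0.864 CPM in vitiligo_ABX, 0.103, 0.224 and 0.344 CPM in no_induction_ABX, 0.323, 0.539 and 2.02 CPM in vitiligo, and 0, 0.174 and 0.373 CPM in no_induction. Its interaction was −1.32 ± 0.79 (adjusted p = 0.285), and it was higher by 2.2 ± 0.49 in vitiligo without ABX (adjusted p = 0.00405). Cxcl9, the interferon gamma induced chemokine of CXCR3+ T cells, had estimates of 2.31 ± 0.77 with ABX (adjusted p = 0.0731) and 2.54 ± 0.58 without (adjusted p = 0.00515), and an interaction of −0.23 ± 1.02 (adjusted p = 0.908). Without vitiligo_ABX 003, the only library of its group with a high level, the interaction was −2.02 (adjusted p = 0.0908). With this standard error an interaction of Cxcl9 was not resolvable at this depth and spread. Cxcl10, from the same chemokine family, had −0.33 ± 0.74 (adjusted p = 0.813). Ifng, the gene of interferon gamma, did not pass the filter and reached at most 0.275 CPM, 5 counts, in a library.

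Of 24 macrophage and dendritic cell genes 22 had a negative estimate (median −0.64). With ABX edgeR called 0 of them (median effect 0.08), with 4 higher at an unadjusted p under 0.05, 1 called higher by DESeq2 and 2 by limma-voom. Without ABX 7 were higher in vitiligo (median effect 0.53, with 6.25% of all genes called higher). The interaction was called for 1 of the 24 genes (4.17%), near the 4.77% of all genes called negative. It was Cd207, the langerin of Langerhans cells, at −0.89 ± 0.29 (adjusted p = 0.0432). Cd207 lost its call when any of 18 libraries was left out. Of 19 chemokines 21.1% were called, against 11.5% of all genes. Negative were 3, Cxcl1 (−2.35), Ccl2 (−1.51) and Cxcl12 (−0.68), and Cx3cl1 was positive (0.72). Markers of mast cells (13 tested), neutrophils (7) and B cells (5) had 0 called members by edgeR, and 12 of the 13 mast cell genes had negative estimates. At an unadjusted p under 0.05 there were 2 mast cell genes, 1 neutrophil gene and 1 B cell gene. DESeq2 called 1, 1 and 0 genes of these lists and limma-voom 5, 1 and 1.

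**Figure D4:**
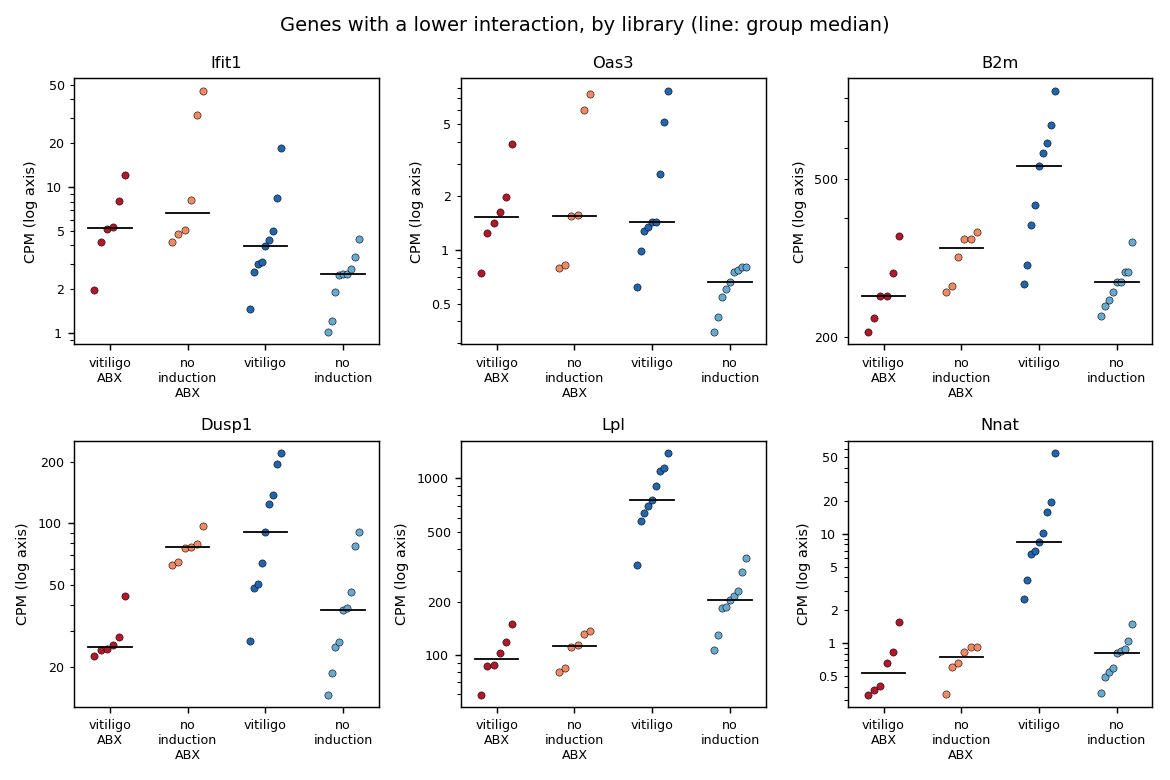
Each point is 1 library, with CPM on a log axis and a line at the group median, for 6 genes with a negative interaction. Ifit1 and Oas3 show 2 high no_induction_ABX libraries, Dusp1 shows vitiligo_ABX below no_induction_ABX without overlap, and for Nnat the vitiligo libraries alone stand high. For Lpl the vitiligo libraries have the highest median and overlap no_induction.

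Genes of fat cells were higher with induction in the absence of ABX, and a smaller share of them was called negative for the interaction. Of 30 adipocyte genes 8 were negative and 0 positive, against 4.77% of all genes called negative, and the median was −0.66. Without ABX 22 of 30 were higher in vitiligo (median effect 1.47, with 6.25% of all genes called higher). With ABX 1 of 30 was higher in vitiligo_ABX (median effect 0.23), near the 4.07% of all genes called higher. Lpl, the lipoprotein lipase that supplies fatty acids to fat cells, had 59.7, 95.3 and 150 CPM in vitiligo_ABX, 80.2, 112 and 136 CPM in no_induction_ABX, 325, 755 and 1390 CPM in vitiligo, and 107, 206 and 354 CPM in no_induction. The vitiligo group was the highest and overlapped no_induction at its edge, and the 2 ABX groups overlapped. Its interaction was −2.10 ± 0.36 (adjusted p = 0.000708), from −0.12 with ABX and 1.98 without. Pparg, the master regulator of fat cell formation, had −1.06 ± 0.20 (adjusted p = 0.00103), Plin4, a lipid droplet coat protein, −1.72 ± 0.31 (adjusted p = 0.00103), and Pnpla2, a triglyceride lipase, −1.13 ± 0.25 (adjusted p = 0.00385).

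The best known hormones of fat cells were not called. Lep, leptin, had 0.186, 0.389 and 3.1 CPM in vitiligo_ABX, 0, 0.208 and 0.517 CPM in no_induction_ABX, 29.8, 51.1 and 178 CPM in vitiligo, and 0.602, 2.74 and 11.1 CPM in no_induction. At under 1 CPM in most ABX libraries the interaction was −2.29 ± 1.34 (adjusted p = 0.271). Adipoq, adiponectin, had −1.19 ± 0.64 (adjusted p = 0.231). The mean log2(CPM + 1) of the list was 4.58, 4.85 and 5.98 in vitiligo_ABX, 4.46, 4.68 and 5.06 in no_induction_ABX, 6.83, 7.15 and 7.63 in vitiligo, and 5.26, 6.11 and 6.25 in no_induction. Fat transcripts were thus lower in both ABX groups, and all 9 vitiligo libraries exceeded every other library.

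The adipocyte count was 14 without vitiligo_ABX 003, the library of its group with the highest fat level, and 12 without vitiligo_ABX 001 to 003. With the adipocyte level as a covariate, a term that overlaps what is tested here, 108 genes were called for the interaction in all, 76 positive and 32 negative, of which 95 belonged to the 1639. The named genes still called in that fit were Krtap5-2, Krtap5-3, Krtap5-4, Krtap10-4, Krtap29-1, Cacna1i, Foxn1, Hoxc13, Gadd45b, Cd1d1, Cd36, Cth, Gjb2, Gjb6 and Slc1a5. Whether the amount of fat in a sample bears on the other calls was not tested beyond this.

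**Figure D5:**
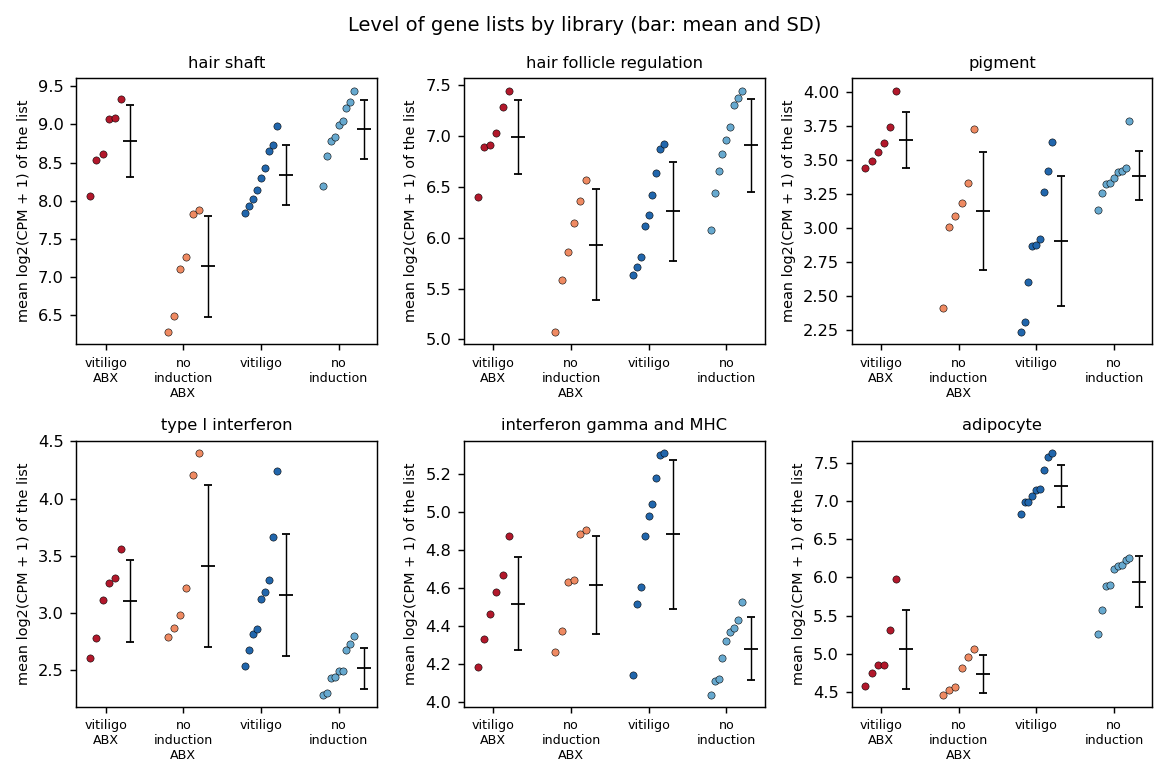
Each point is the mean log2(CPM + 1) of a gene list in 1 library, with the mean and SD of each group as a bar. Hair lists are lowest in no_induction_ABX, pigment is spread widely in no_induction_ABX and vitiligo, type I interferon shows 2 high no_induction_ABX libraries, and the adipocyte level is highest in vitiligo (6.83 to 7.63).

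Among single genes outside these lists, Nnat had the largest negative interaction of those named by rule. Nnat is an imprinted gene that codes for a small membrane protein of the endoplasmic reticulum. It had 0.339, 0.532 and 1.57 CPM in vitiligo_ABX, 0.344, 0.744 and 0.931 CPM in no_induction_ABX, 2.52, 8.48 and 54.7 CPM in vitiligo, and 0.351, 0.819 and 1.49 CPM in no_induction. Every vitiligo library lay above every other library. Its interaction was −4.21 ± 0.80 (adjusted p = 0.0015), from −0.03 with ABX and 4.18 without. Plppr4 (−2.76), Amy1 (−2.46) and Trhde (−2.29) were likewise high in vitiligo only by their medians.

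Genes that respond to glucocorticoids, and early response genes, were negative in a different arrangement. Of 15 glucocorticoid response genes 8 were negative and 1 positive (Cdkn1a), against 4.77% and 6.68% of all genes. Their median was −0.62, from median effects of −0.45 with ABX and 0.42 without. Dusp1, the phosphatase that switches off p38 and JNK kinases, had 22.6, 24.9 and 44.2 CPM in vitiligo_ABX, 62.5, 76.5 and 97.1 CPM in no_induction_ABX, 26.8, 90.6 and 220 CPM in vitiligo, and 14.6, 37.7 and 90.8 CPM in no_induction. The 2 ABX groups did not overlap and vitiligo_ABX was below. Its interaction was −2.79 ± 0.55 (adjusted p = 0.00199). Dusp1 fell by 1.44 ± 0.42 in vitiligo_ABX (adjusted p = 0.0413) and was higher by 1.35 ± 0.34 in vitiligo (adjusted p = 0.0125). Tsc22d3, the glucocorticoid-induced leucine zipper, had −1.73 ± 0.43 (adjusted p = 0.00911), Klf9 −1.11 ± 0.31 (adjusted p = 0.0201) and Per1, also a clock gene, −1.43 ± 0.43 (adjusted p = 0.0282).

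Fos, an immediate early transcription factor, had −3.17 ± 0.86 (adjusted p = 0.0166), Nr4a1 −2.10 ± 0.45 (adjusted p = 0.00346) and Klf2 −1.74 ± 0.30 (adjusted p = 0.000762). Depp1, a target of FOXO factors, had −2.96 ± 0.60 (adjusted p = 0.0022). Of 27 immediate early and heat shock genes in all, 4 were negative and 2 positive, against 4.77% and 6.68% of all genes. The median was −0.13, so the group as a whole did not share these values. Of 19 circadian clock genes 5 were negative (26.3%, against 4.77% of all genes) and 0 positive. Among the negative ones were Rora (−0.75), Clock (−0.56) and Per3 (−0.67). The glucocorticoid count fell to 2 without no_induction_ABX 005, 3 without vitiligo_ABX 002, 4 without vitiligo_ABX 001 or without no_induction_ABX 002, and 5 without vitiligo_ABX 003 or without no_induction 023. It was 1 without vitiligo_ABX 001 to 003, as was the clock count, and 3 without no_induction_ABX 002 and 004.

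The series was set up around oxidative stress in skin, and the genes of this field gave few calls in mixed directions. Of 38 antioxidant enzymes 2 were positive and 3 negative (13.2% called, close to the 11.5% of all genes), with a median of −0.04. Txnrd1, the thioredoxin reductase, had 103, 162 and 230 CPM in vitiligo_ABX, 83.5, 94.1 and 107 CPM in no_induction_ABX, 110, 137 and 181 CPM in vitiligo, and 129, 163 and 187 CPM in no_induction. The no_induction_ABX group was the low one, overlapping vitiligo_ABX only at its edge, and the interaction was 0.99 ± 0.17 (adjusted p = 0.000762). Cat, the catalase, and Sod1, the cytosolic superoxide dismutase, were negative at −0.66 ± 0.16 and −0.69 ± 0.16 (adjusted p = 0.0069 and 0.00705). Sod2, its mitochondrial counterpart, had 100, 116 and 131 CPM in vitiligo_ABX, 104, 110 and 121 CPM in no_induction_ABX, 105, 116 and 153 CPM in vitiligo, and 106, 114 and 127 CPM in no_induction. Its interaction was 0.00 ± 0.10 (adjusted p = 0.994).

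Targets of NRF2, the transcription factor of the antioxidant response, were also mixed. Of 38 tested 3 were positive and 4 negative (18.4% called, against 11.5% of all genes), with a median of −0.22. Nfe2l2, which encodes NRF2 itself, had 0.45 ± 0.13 (adjusted p = 0.019), and all 6 vitiligo_ABX libraries exceeded the 6 no_induction_ABX libraries. Slc7a11, the cystine transporter, had 1.68 ± 0.44 (adjusted p = 0.0122), while Aldh3a1, an aldehyde dehydrogenase, and Akr1c13, an aldo-keto reductase, had −0.70 ± 0.19 and −0.99 ± 0.25 (adjusted p = 0.0169 and 0.0108). The standard targets Hmox1 and Nqo1 were not called, at −0.20 ± 0.30 and 0.02 ± 0.15 (adjusted p = 0.707 and 0.948). Of 32 genes that make or use reactive oxygen species 9.38% were called, under the 11.5% of all genes. Among them 1 was positive (Smox, 0.76) and 2 were negative (Aox1, −1.15, and Alox5, −0.91), and Nos2 was not called (−0.39 ± 0.41, adjusted p = 0.581). Without vitiligo 001 this count of negative genes was 10. Of 35 genes of p38 and stress kinase signalling 17.1% were called, against 11.5% of all genes. Of these 4 were positive, among them Gadd45b (0.94 ± 0.16, adjusted p = 0.000762) and Trp53 (0.62), and 2 were negative, among them Mef2a (−0.75). Mapk14, the p38 alpha kinase, had 0.02 ± 0.09 (adjusted p = 0.913).

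Of 41 epidermal barrier genes 2 were positive (4.88%), under the 6.68% of all genes called positive, and the median was −0.05. They were Tgm1 (0.79) and Tgm3 (0.91), which cross-link the cornified envelope. Of 18 basal keratinocyte genes 2 were positive (11.1%), Cdh3 (1.02) and Itga3 (0.56). Of 24 fibroblast and matrix genes 2 were negative (8.33%, against 4.77% of all genes), Dpt (−1.31) and Loxl1 (−0.83). Without vitiligo_ABX 001 to 003 each of these lists had 0 such calls. Of 17 sebaceous gland genes 3 were negative, against 4.77% of all genes, among them Scd1 (−0.92) and Mgst1 (−0.62), and 1 was positive (Prdm1, 0.74). Lists of endothelium (18 tested), Schwann cells (15), bone and cartilage (10), the cell cycle (30), red blood cells (6), genes encoded by the mitochondrial genome (13) and ribosomal proteins (59) had 0 called members by edgeR. In the cell cycle list 6 of 30 were positive at an unadjusted p under 0.05, DESeq2 called 2 and limma-voom 17. In the other lists named there 0 to 3 members lay under 0.05, DESeq2 called 0 or 1 and limma-voom 1 to 5. Hoxb13, a gene of the tail end of the body axis, had 13.7, 23.1 and 33.6 CPM in vitiligo_ABX, 24.8, 27.2 and 30.2 CPM in no_induction_ABX, 0.323, 3.69 and 9.7 CPM in vitiligo, and 2.06, 9.17 and 12.2 CPM in no_induction. Within vitiligo_ABX, libraries 001 to 003 had 13.7 to 19 CPM and 004 to 006 had 27.3 to 33.6 CPM. Every ABX library exceeded every library without ABX, and the interaction of Hoxb13 was 0.79 ± 0.56 (adjusted p = 0.376). Of 20 posterior Hox genes 5 were positive (25%, against 6.68% of all genes), among them Hoxb7 (0.54), Hoxc12 (0.72) and Hoxc11 (0.51).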

How the data were processed

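Messenger RNA of mouse tail skin was sequenced on a NovaSeq instrument from NEBNext Ultra libraries, per the labels' protocols. Bowtie2 2.2.8, HISAT2, StringTie 1.3.1 and DESeq2 are named, without roles, per the submitters' processing notes. Which genome build and counting program were used, and whether counting used strand, is not given in the sources used here, so overlapping and antisense genes could not be told apart. The authors deposited 1 table of expected counts per gene, not normalized. They are estimated counts, since a value was not whole in 16.2% of genes. Values were rounded, at a cost of up to 22.1 counts per library. Of 19220 rows 1 incomplete row was left out, and 3 columns of no sample were not used.

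Groups follow the treatment in the labels, and each library counted as 1 replicate. Nothing says that libraries are separate mice, and the spread behind the p-values is that between libraries, which may be technical. The smallest chi-square per degree of freedom between libraries of a group was 7.58, so none was taken as a repeat of another. The closest pairs were no_induction 022 and 023 (7.58), 021 and 023 (9.75) and 021 and 022 (13.2). On the second principal component, 22.1% of the variance, these libraries lay at 26.9 to 33.3 and the rest of no_induction at −17.1 to 18. Induction without ABX was called for 840, 823 and 833 genes without 021, 022 and 023 in turn, and for 816 without vitiligo 047. Whether these libraries are independent was not tested. The members, lists and named genes were chosen with earlier results of these data known.

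In R 4.3.3, edgeR 4.0.16 fitted the 30 libraries in 1 model with TMM factors, its default count filter and robust quasi-likelihood dispersion. Tests were two-sided, adjusted by the Benjamini-Hochberg method over 14310 genes at 0.05, and standard errors (SE) came from the F statistic. Levels in CPM used totals scaled by TMM. The level of a list is the mean log2(CPM + 1) of its tested members. No list was tested as a set. Alternatives were RLE factors, no and a stricter filter, DESeq2 1.42.0, limma-voom 3.58.1 with quality weights, all 38 libraries, the library number as a block, an adipocyte covariate, an interaction of at least 1 on the log2 scale, and leaving out each library. Leaving out the libraries with Y-linked or gut transcripts, vitiligo_ABX 001 to 003, or no_induction_ABX 002 and 004 was chosen after the data were examined. Counts of 14310 genes were also simulated independently for each library, with 1 mean per gene for all groups. In 200 genes vitiligo_ABX alone was changed. For the interaction the test called 68% of changes of 1 and 91% of changes of 2 on the log2 scale, and 0.0283% of unchanged genes. Differences that many genes share between libraries of a group, as in vitiligo_ABX 001 to 003, were not simulated. These shares are therefore not error rates of the real data.

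The genes named are the 15 largest positive and 15 largest negative interactions among called genes with a mean of at least 1 CPM and no provisional, pseudogene or receptor segment symbol, up to 4 members of each list by p, and a fixed set of pigment, T cell, interferon, oxidative stress and fat genes. Some of the genes so picked are not reported here. Cth, Cbs, Gjb2, Gjb6, Slc1a5, Ghr, Cd36, Cd1d1, Gbp2 and Gbp7 were chosen after their values were seen. Promoters are from RefSeq, GRCm38.p6.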

Additional observations from a re-analysis of the deposited data

Results flagged for a closer look

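The number of genes whose induction effect differed between ABX and no ABX, 1639, is flagged because the difference between the 2 settings was itself tested. The other flags are of single libraries that lay far from the rest of their group. In 536 pairs of a named gene and a group 33 libraries lay past the limit of Dixon's test (6.16%), and in 152 pairs of a list level and a group 11 did. Chance alone flags about 1 in 20.

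In vitiligo_ABX, library 006 was the highest for Fos (32.7 CPM) and Dusp1 (44.2 CPM) and for the B cell level (1.68, mean log2(CPM + 1) as for all levels here). Library 003 was the highest for Cxcl9 (8.63 CPM), Cxcl10 (5.48 CPM), Nqo1 (16.1 CPM) and Slc1a5 (61.6 CPM). Library 001 was the highest for Mx1 (4.52 CPM) and the lowest for Cd3e (0.661 CPM) and Ghr (25.6 CPM). Without library 003 the interaction of Cxcl9 was −2.02, against −0.23 with it.

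In no_induction_ABX, library 006 was the lowest for Sprr1a (50.5 CPM), Itga3 (53.3 CPM), the epidermal barrier level (6.46) and the basal keratinocyte level (7.57). Library 005 was the lowest for Cps1 (1.77 CPM) and the highest for the T cell level (1.77) and the level of genes that make reactive oxygen species (4.42). Library 002 was the highest for Tapbp (177 CPM) and library 004 for Cxcl9 (0.938 CPM).

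In vitiligo, library 001 stood apart most often. It was the lowest for Tapbp (78.8 CPM), Loxl1 (29.3 CPM), Klf6 (104 CPM), Mapk14 (89.3 CPM), the fibroblast level (7.32) and the level of genes that make reactive oxygen species (3.94). It was the highest for Hoxc13 (147 CPM) and the cell cycle level (5.20). Its removal raised the count of calls to 2679. Library 000 was the highest for Cmpk2 (16.6 CPM) and the skeletal muscle level (1.78), and library 062 for the cholesterol synthesis level (7.03).

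In no_induction, library 012 was the lowest for Krtap31-1 (1.27 CPM) and the highest for Klf2 (28.5 CPM) and Hmox1 (128 CPM). Library 011 was the lowest for Loxl1 (21.4 CPM) and the highest for Tyr (25.6 CPM) and the pigment level (3.78). Library 005 was the lowest for Krt86 (353 CPM) and Slc7a11 (23 CPM) and the highest for Mapk14 (131 CPM). Library 002 was the lowest for Rora (165 CPM) and Clock (48.7 CPM). Library 001 was the highest for Nfe2l2 (85.1 CPM), and library 022 for Ier5 (85.1 CPM) and Cxcl9 (2.23 CPM).

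A signal outside the main measurement was found in 2 no_induction libraries, where Y-linked transcripts summed to 210 CPM in library 011 and 173 CPM in library 012. All other libraries of the 4 groups had at most 0.299 CPM. The labels give no sex, and whether this bears on any result was not tested beyond leaving both libraries out, which gave 1810 calls.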

How the results depend on the processing

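The interaction was called for 1666 genes with RLE factors, 1473 without the count filter, 1623 with the stricter filter, 2054 by DESeq2 and 1828 with all 38 libraries, against 1639. Limma-voom called 4445, of which 48% were positive against 58.3%. It was 561 at an interaction of at least 1 on the log2 scale, 108 with the adipocyte covariate, 625 without vitiligo_ABX 001 to 003 and 820 without no_induction_ABX 002 and 004. It was 1337 without the libraries with gut transcripts, of which 67.8% were positive. With the library number as a replicate block 0 genes were called (1586 at an unadjusted p under 0.05). Same-numbered ABX libraries correlated at −0.0418 to 0.355 and 2 of 6 matched their own number best, which does not show that the numbers pair the samples. Most libraries without ABX carry a number that no other library of the groups has, and the block takes up such a library whole. The block fit therefore cannot show whether the calls hold. Leaving out 1 library gave 1177 to 2679 calls, the highest without vitiligo 001.

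Induction without ABX, called for 1325 genes, gave 5981 by limma-voom, 0 with the block and 0 with the covariate (1088 and 1028 at an unadjusted p under 0.05), 662 without the libraries with gut transcripts, and 816 to 2833 with 1 library left out. Induction with ABX, called for 819, gave 1946 by limma-voom, 310 without vitiligo_ABX 001 to 003, 158 without no_induction_ABX 002 and 004, and 416 to 994 with 1 library left out. With the block it was 583. For induction without ABX the 0 calls with the block and with the covariate cannot show whether the effect holds. The block left few of these libraries to compare. The adipocyte level itself parted vitiligo (6.83 to 7.63) from no_induction (5.26 to 6.25) without overlap, so the covariate overlaps that contrast. The cause of the other differences was not tested.

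Of 109 named genes that were called, 108 lost the call with the block and 1, Cxcl12, turned to 0.01. As said above, the block left few libraries without ABX to compare. The covariate ended 94 of the calls, leaving out vitiligo_ABX 001 to 003 ended 48, leaving out no_induction_ABX 002 and 004 ended 37, leaving out the libraries with gut transcripts 15, no filter 3, limma-voom 1, and DESeq2 and RLE factors 0. With 1 library left out, Alox5 lost its call for 19 of the 30 libraries, Cd207 for 18, Prdx2 for 17, Cxcl12 for 14, Itga3 for 12, Loxl1 for 9, Ifi44 for 7, Oca2, Per1 and Hoxc11 for 4 each, Mx1, Apol9a and Sdhd for 2 each, and Ifit1, Ifit3, Trhde, Ttn and Klf9 for 1 each. Every other change of sign was of a gene not called. With the block these were Ighm (0.58), Cxcl10 (0.25), Nos2 (0.45), Hmox1 (0.06) and Nqo1 (−0.06). With the covariate they were Cxcl9 (0.18), Sod2 (0.04), Lep (0.01), Adipoq (0.92) and Hoxb13 (−0.02). Without no_induction_ABX 002 and 004 they were Cxcl9 (0.27) and Hmox1 (0.04). By limma-voom they were Sod2 (0.05), Nqo1 (−0.02) and Mapk14 (−0.09). Sod2 was 0.02 with all 38 libraries and 0 to 2 decimals with RLE factors and DESeq2. Nqo1 was −0.06 without the libraries with Y-linked transcripts and −0.03 without those with gut transcripts, and Mapk14 −0.06 without vitiligo_ABX 001 to 003. With 1 library left out, Cxcl9 ran from −2.02 to 0.26, Sod2 from −0.04 to 0.05, Hmox1 from −0.39 to 0.04, Nqo1 from −0.04 to 0.09 and Mapk14 from −0.02 to 0.05.

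Depth limits the genes near 1 CPM, among them Cd8a, Lep in the ABX groups and Ifng, which was not tested.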

Other observations

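The interactions of 4 single genes of cysteine and glutathione metabolism are given here as values. Cth and Cbs were chosen after their values were seen, and no list of this pathway was counted. Cth, which releases cysteine from cystathionine, had 17.8, 26.6 and 33.7 CPM in vitiligo_ABX (lowest, median and highest), 3.75, 5.54 and 9.21 CPM in no_induction_ABX, 11.3, 16 and 36.1 CPM in vitiligo, and 14.4, 20.8 and 31.2 CPM in no_induction. Every no_induction_ABX library lay below every library of the other 3 groups. Its interaction was 2.30 ± 0.35 (adjusted p = 0.000397), from 2.09 with ABX and −0.21 without. Cbs, the enzyme before it in the same pathway, had 1.42 ± 0.27 (adjusted p = 0.00156), and its ABX groups did not overlap either. Chac1, which degrades glutathione, had 3.16 ± 0.51 (adjusted p = 0.000472), and Slc7a11, which imports cystine, 1.68 ± 0.44 (adjusted p = 0.0122).

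The connexins Gjb2 and Gjb6, which form gap junctions between keratinocytes, had interactions of 1.58 ± 0.26 and 1.17 ± 0.17 (adjusted p = 0.000472 and 0.000309). Gjb2 had 348, 438 and 584 CPM in vitiligo_ABX, 137, 225 and 328 CPM in no_induction_ABX, 237, 349 and 462 CPM in vitiligo, and 340, 510 and 734 CPM in no_induction. The ABX groups did not overlap, and those without ABX did. On the negative side, Ghr, the growth hormone receptor, had −2.08 ± 0.32 (adjusted p = 0.000397), Cd36, a fatty acid transporter, −1.57 ± 0.24 (adjusted p = 0.000397), and Cd1d1, which presents lipids to NKT cells, −1.72 ± 0.24 (adjusted p = 0.000309). Slc1a5, a glutamine transporter, had 35.1, 39.1 and 61.6 CPM in vitiligo_ABX, 32.4, 36.7 and 48 CPM in no_induction_ABX, 99.9, 176 and 211 CPM in vitiligo, and 32.9, 48.2 and 67.4 CPM in no_induction. All 9 vitiligo libraries exceeded every other library, and the interaction was −1.57 ± 0.24 (adjusted p = 0.000397). All of these except Ghr, Cbs, Chac1 and Slc7a11 stayed called with the adipocyte covariate.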
